A study of Mus musculus with 4 samples.

Results

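The linear ubiquitin chain assembly complex (LUBAC) and the deubiquitinases that oppose it were followed through 5 transcripts, Rnf31, Rbck1, Sharpin, Otulin and Cyld, out of 37411 gene rows in the deposited count table. They were found as the rows whose gene name equals one of these symbols, and all 5 were among the 14357 genes tested. Rnf31 was selected on its higher count in the KIF5C precipitate, so its difference between the antibodies is given as a description with no test. The other 4 were taken for their place in the pathway. The series asked which RNAs associate with KIF5C, a neuronal kinesin heavy chain that carries cargo along microtubules, in the mouse hippocampus. RNA that co-precipitated with a kinesin antibody (KIF5C libraries) was compared with RNA that came down with a mouse IgG control antibody (IgG libraries), 2 libraries each. All groups were hippocampi of mice aged 7 to 9 weeks, and neither a genotype nor a treatment is given for either of them. The hippocampi of 2 mice went into each precipitation, and 6 precipitations were pooled into 2 samples, without a statement of whether 6 is the number for each antibody. Whether libraries of the same antibody stem from different animals is not stated, so a p-value here reflects the scatter among these 4 libraries alone, and that scatter may be technical. In such bulk precipitates, fewer cells of a type and less RNA per cell cannot be told apart. No library of input RNA was analysed here, so "higher" always means higher in the KIF5C than in the IgG precipitate.

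LUBAC joins ubiquitin molecules head to tail into linear chains, which hold together the signalling platforms below the TNF receptor and other immune receptors and so steer a cell towards NF-kappaB activity and away from death. HOIP, the product of Rnf31, is the catalytic subunit. HOIL-1, from Rbck1, and SHARPIN are its partner subunits and stabilise it. OTULIN cleaves linear chains alone, while CYLD cleaves linear chains and another, lysine-linked type. In mice, loss of Rnf31 or Otulin is lethal to the embryo, and loss of Sharpin causes chronic skin inflammation. CYLD is abundant in brain, where it is also found at the postsynaptic density.

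KIF5C libraries 1 and 2 held 15172432 and 14623843 counts, and IgG libraries 1 and 2 held 12543510 and 11059266. Of the listed neuronal markers, 12 of 12 passed the filter on low counts. So did all listed markers of the other cell types followed below, so passing it does not set neurons apart. Of the genes tested, 478 were higher (3.33%) and 107 lower (0.745%) in the KIF5C precipitate at an adjusted p under 0.05 in edgeR. With library totals in place of TMM scaling, 1 was higher and 4 lower, and the median log2 fold change of all genes was 0.11 in place of -0.03. The mitochondrial 16S rRNA took 11.3% and 31.9% of the counts in KIF5C libraries 1 and 2, and 7.36% and 32.2% in IgG libraries 1 and 2, so libraries with the same number were alike in this share.

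Rnf31 (chromosome 14, 55591708 to 55603693, plus strand, GRCm38) had the highest fold change of the 5. It had 234 and 175 counts in KIF5C libraries 1 and 2, where IgG libraries 1 and 2 had 79 and 22. Scaled by TMM, edgeR's correction for library composition, this was 12.1 and 13.6 CPM (counts per 1000000) with the KIF5C antibody, against 5.06 and 2.80 CPM with IgG. Both KIF5C libraries lay above both IgG libraries. The KIF5C libraries were close to each other, whereas IgG library 1 was higher than IgG library 2. The mean was 12.8 ± 1.08 CPM with the KIF5C antibody and 3.93 ± 1.60 CPM with IgG (SD, n = 2 each). The fitted log2 fold change was 1.65 (SE 0.29), a ratio of 3.13. Over the 4 pairings of a KIF5C with an IgG library, the log2 difference ran from 1.23, for library 1 of each antibody, to 2.23, for library 2 of each. Rnf31 ranked 42 by log2 fold change among all genes tested, and 12 among those whose mean log2 CPM was 3 or more. In the authors' deposited table, whose log2 values are IgG over KIF5C, Rnf31 stood at -1.27 (SE 0.292), with a linear fold of 2.41 for KIF5C over IgG.

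**Figure D1:**
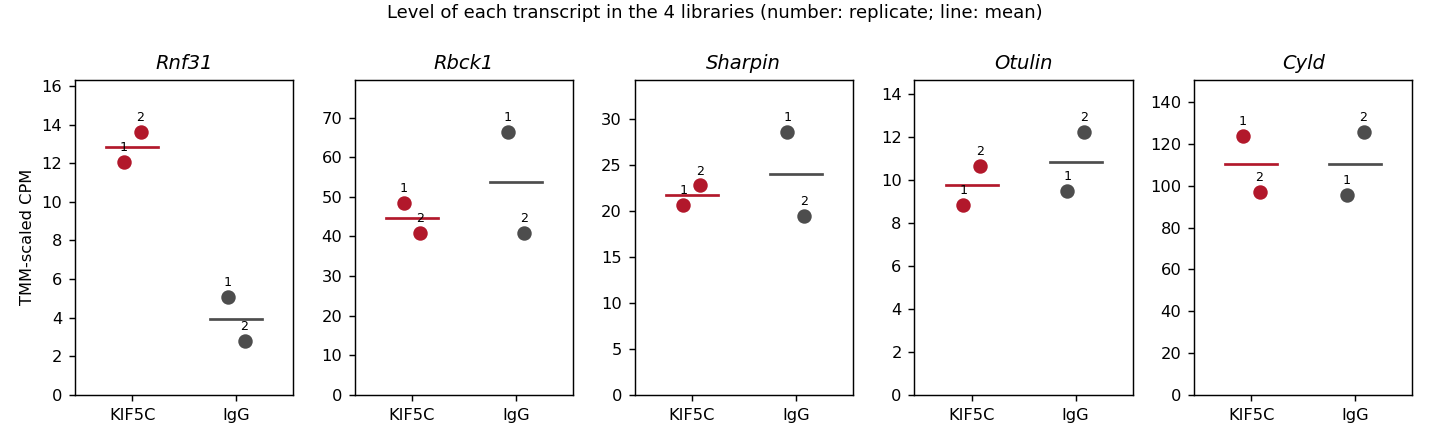
TMM-scaled CPM (vertical axes, from 0, a scale of its own for each transcript) in the KIF5C and IgG libraries. Points are libraries marked with their replicate number and lines are means of 2. Rnf31 has 12.1 and 13.6 CPM in the KIF5C libraries, above 5.06 and 2.80 in the IgG libraries, and the groups overlap for the other 4.

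Reads of Rnf31 could be mixed up with those of Irf9, an interferon-response transcription factor gene that starts on the same strand before Rnf31 ends. The coding part of Rnf31's last exon, exon 21, is shown because it runs into this overlap. It covers chr14:55603532-55603582 (GRCm38, plus strand, 51 bases, 5′ to 3′, stop codon left out), from GENCODE release M21. Capitals mark the 12 bases that also lie in an exon of Irf9.
Rnf31 last coding stretch: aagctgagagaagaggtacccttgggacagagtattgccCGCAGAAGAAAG
The overlap goes on past the stop codon, to 123 bases in all (chr14:55603571-55603693), or 3.53% of the Rnf31 transcript of 3485 nt. Irf9 itself had 124 and 74 counts in the KIF5C libraries and 109 and 57 in the IgG libraries. The log2 fold change of Irf9 was -0.22 (SE 0.27, 95% interval -0.79 to 0.35, edgeR adjusted p = 0.678). On the other side of Rnf31, Psme2, a proteasome activator gene read from the opposite strand and 594 bases away, had 8.62 and 7.39 CPM in the KIF5C libraries and 9.09 and 11.3 CPM in the IgG libraries. For Psme2 the log2 fold change was -0.33 (SE 0.26, 95% interval -0.87 to 0.21, adjusted p = 0.476). In both neighbours the KIF5C libraries lay below the IgG libraries, as in 26.2% of all genes tested, with differences that did not pass. Whether the count of Rnf31 holds reads of Irf9 was not tested.

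For the partner subunits and the deubiquitinases no difference passed the test. None of Rbck1, Sharpin, Otulin and Cyld passed in edgeR, DESeq2 or limma-voom, and 0 of the 4 had an unadjusted p under 0.05 in any of these tools. Over all genes, 1784 of 14357 were higher and 1301 lower at an unadjusted p under 0.05 in edgeR. Rbck1 (chromosome 2, 152316334 to 152332653, minus strand), the HOIL-1 gene, had 939 and 526 counts in the KIF5C libraries and 1036 and 322 in the IgG libraries. These were 48.5 and 40.9 CPM with the KIF5C antibody and 66.3 and 41.0 CPM with IgG. KIF5C library 2 and IgG library 2 were level, and IgG library 1 was the highest. The log2 fold change was -0.27 (SE 0.24, 95% interval -0.78 to 0.24, adjusted p = 0.551), smaller than the log2 difference of 0.69 between the IgG libraries.

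Sharpin (chromosome 15, 76347040 to 76351111, minus strand), the gene of the third LUBAC subunit, had 400 and 293 counts in the KIF5C libraries and 446 and 153 in the IgG libraries. The scaled levels were 20.6 and 22.8 CPM with the KIF5C antibody and 28.5 and 19.5 CPM with IgG, so both KIF5C libraries lay between the IgG libraries. Its log2 fold change was -0.16 (SE 0.24, 95% interval -0.65 to 0.34, adjusted p = 0.740). The difference of Rbck1 and Sharpin from Rnf31 was not tested, because Rnf31 was picked for its value. Sharpin lies between Cyc1, a respiratory complex III gene 779 bases away, and Maf1, a repressor gene of RNA polymerase III 182 bases away, both on the opposite strand. Their log2 fold changes were -0.54 (SE 0.22, adjusted p = 0.166) and -0.40 (SE 0.22, adjusted p = 0.310).

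OTULIN and CYLD are the enzymes that take linear chains apart. Otulin (chromosome 15, 27542635 to 27630693, minus strand) had 171 and 137 counts in the KIF5C libraries and 148 and 96 in the IgG libraries. These came to 8.83 and 10.7 CPM with the KIF5C antibody and 9.47 and 12.2 CPM with IgG, and the groups overlapped. Its log2 fold change was -0.15 (SE 0.25, 95% interval -0.68 to 0.39, adjusted p = 0.780). Otulin overlaps Ank, a pyrophosphate transport gene on the opposite strand, with no shared exon bases. Ank had 111 and 87.1 CPM in the KIF5C libraries and 59.1 and 62.7 CPM in the IgG libraries, which did not pass (log2 fold change 0.70, SE 0.22, adjusted p = 0.0785). Whether the count of Otulin holds reads of Ank was not tested, since the strandedness is not given in the sources used here.

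Cyld (chromosome 8, 88697028 to 88751945, plus strand) was the most counted of the 5. It had 2397 and 1246 counts in the KIF5C libraries and 1494 and 987 in the IgG libraries, which scaled to 124 and 96.9 CPM with the KIF5C antibody and 95.6 and 126 CPM with IgG. Each antibody had a higher and a lower library, and the ranges nearly coincided. The means were 110 ± 19.0 CPM in the KIF5C libraries and 111 ± 21.2 CPM in the IgG libraries (SD, n = 2 each), and the log2 fold change was -0.0013 (SE 0.23, 95% interval -0.49 to 0.49, adjusted p = 0.999). In the authors' deposited table, again as IgG over KIF5C, Rbck1 stood at 0.22, Sharpin at 0.12, Otulin at 0.11 and Cyld at -0.017, with adjusted p-values from 0.651 to 0.976.

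Non-overlap between the groups is common with 2 libraries each. Both KIF5C libraries lay above both IgG libraries in 26.3% of all genes tested and below them in 26.2%. Among the 5 transcripts, this held upward for 1 (Rnf31, which was picked for it) and downward for 0.

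Set per transcript length, Rnf31 was the scarcest of the 5 in every library. CPM were divided by the length of the longest annotated protein-coding transcript. Rnf31 reached 3.47 and 3.90 CPM per kb in the KIF5C libraries and 1.45 and 0.803 CPM per kb in the IgG libraries. Otulin came next, at 5.92 and 7.14 CPM per kb in the KIF5C libraries and 6.35 and 8.19 CPM per kb in the IgG libraries. Sharpin had 11.9 and 13.1 CPM per kb in the KIF5C libraries and 16.5 and 11.2 CPM per kb in the IgG libraries. Cyld had 15.4 and 12.1 CPM per kb in the KIF5C libraries and 11.9 and 15.7 CPM per kb in the IgG libraries, so that Sharpin and Cyld overlapped within each antibody. Rbck1 was the highest, at 20.3 and 17.2 CPM per kb in the KIF5C libraries and 27.8 and 17.2 CPM per kb in the IgG libraries.

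Per length, Rnf31 made up 9.71% and 11.4% of the summed level of the 3 LUBAC subunits with the KIF5C antibody, and 3.17% and 2.75% with IgG. Since it contains the value on which Rnf31 was picked, this share is a description. The ratio of Rbck1 to Sharpin, which the choice of Rnf31 did not use, was 1.71 and 1.31 in the KIF5C libraries and 1.69 and 1.53 in the IgG libraries. The ratio of Cyld to Otulin was 2.61 and 1.69 in the KIF5C libraries and 1.88 and 1.91 in the IgG libraries. For these ratios the KIF5C libraries differed more from each other than the 2 antibodies did on average.

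**Figure D2:**
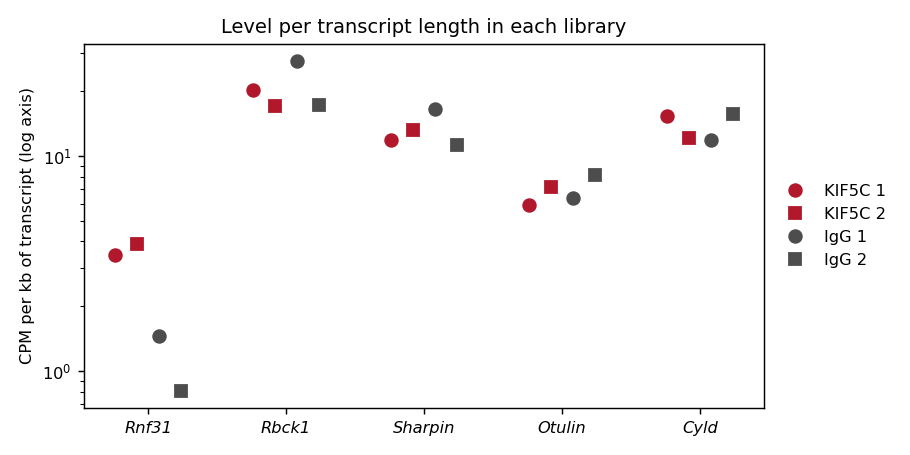
CPM per kb of the longest annotated protein-coding transcript (log axis) for the 5 transcripts, with KIF5C libraries in red left of IgG libraries in grey, circles for library 1 and squares for library 2. Rnf31 is the lowest in each library, from 0.803 CPM per kb in IgG library 2 to 3.90 in KIF5C library 2, and Rbck1 is the highest, from 17.2 to 27.8.

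The 5 transcripts differed in composition. GC content was 58.6% for Rnf31, 60.2% for Rbck1, 56.8% for Sharpin, 54.2% for Otulin and 43.5% for Cyld, and length ran from 1491 nt (Otulin) to 8022 nt (Cyld). Rbck1 and Sharpin, the nearest to Rnf31 in GC content, were at -0.27 and -0.16. Because Rnf31 was picked for its value of 1.65, setting it against them does not bear on GC content. What composition contributed to the value of Rnf31 was not tested. With the counts corrected for a trend on GC content and length, the log2 fold change of Rnf31 was 1.37 and that of Rbck1 was -0.46 (adjusted p = 0.193).

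Genes around the complex were taken from 7 lists with 78 different genes, of which 71 passed the filter on low counts. Of these, 5 (7.04%) rose, 1 fell and 65 did not pass, against 3.33% higher and 0.745% lower over all genes tested. Their median log2 fold change was -0.10, against -0.03 over all genes tested. The lists were chosen with earlier results of these data known, so these shares are a description. The 7 that did not pass the filter, among them Tnf, Ripk3, Mlkl and Bcl3, had 0 to 19 counts in each library.

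The genes of the CYLD adaptors were among the 5 that rose. SPATA2 bridges CYLD to HOIP, and its relative SPATA2L binds CYLD as well. Spata2 had 45.0 and 46.3 CPM with the KIF5C antibody, against 26.9 and 26.3 CPM with IgG. The libraries of each antibody were nearly level, and the groups did not overlap. Its log2 fold change was 0.78, or 1.72-fold (SE 0.21, adjusted p = 0.0483). Spata2l had 30.3 and 28.8 CPM with the KIF5C antibody, against 17.2 and 13.7 CPM with IgG, again without overlap. This was a log2 difference of 0.93, or 1.90-fold (SE 0.23, adjusted p = 0.0308). Without 1 library, the log2 fold change of Spata2 ran from 0.78 to 0.81 and that of Spata2l from 0.80 to 1.11. Both stayed past the threshold without IgG replicate 1 (adjusted p = 0.0313 and 0.00760). Spata2 and Spata2l missed the threshold without KIF5C replicate 1 (adjusted p = 0.303 and 0.213), KIF5C replicate 2 (0.219 and 0.0880) or IgG replicate 2 (0.0875 and 0.0895), and with the correction for GC content and length (0.107 and 0.0529).

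The whole list held deubiquitinase adaptors and proteins working with A20, an enzyme that restrains NF-kappaB. Of its 9 tested genes, Spata2 and Spata2l rose, 0 fell and 7 did not pass (median 0.46). Over all genes tested, 3.33% were higher and 0.745% lower. DESeq2 was run without the filter on low counts. It called 3 of 10 higher, against 650 of the 22204 genes it fitted, a larger set than the 14357 tested in edgeR. The gene of A20 itself, Tnfaip3, was at -0.11 (SE 0.27), and Otulinl, a relative of Otulin without known enzyme activity, was at -0.17 (SE 0.22). Tnip1, encoding an A20 partner that binds linear chains, had 15.7 and 14.1 CPM in the KIF5C libraries and 8.51 and 8.01 CPM in the IgG libraries. It narrowly missed the threshold, with adjusted p = 0.0531 (log2 fold change 0.85, SE 0.24).

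The list of linear-chain readers had 6 tested genes (median 0.39). Of these, 5 did not pass and Vcp rose, against 3.33% higher over all genes tested. Vcp encodes the ATPase p97/VCP, listed here because it docks on the same domain of HOIP as OTULIN and SPATA2. It had 84.2 and 60.7 CPM with the KIF5C antibody, against 39.6 and 36.0 CPM with IgG. The log2 fold change was 0.94 (SE 0.23, adjusted p = 0.0306), but the adjusted p was 0.424 without KIF5C replicate 1 and 0.101 without IgG replicate 2. Ikbkg, the gene of the kinase subunit NEMO that binds linear chains, was at -0.27 (SE 0.21, adjusted p = 0.475), and the autophagy receptor gene Optn was at 0.32 (SE 0.27, adjusted p = 0.521).

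**Figure D3:**
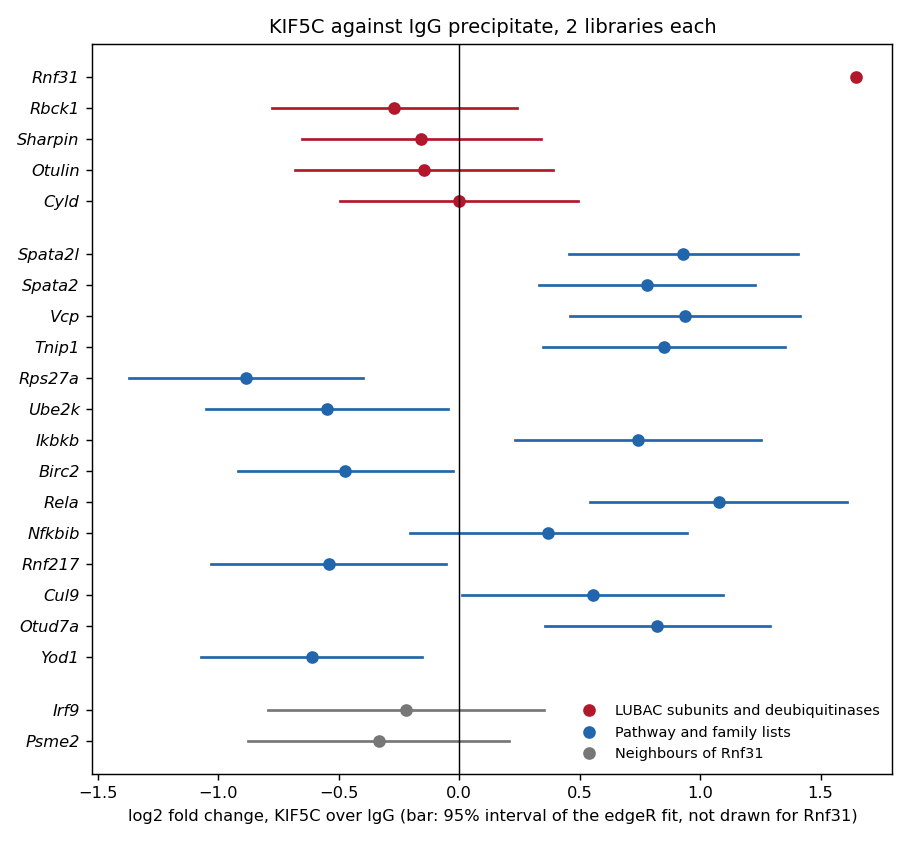
Log2 fold change of the KIF5C over the IgG precipitate (horizontal axis) for the 5 transcripts (red), the genes named from the lists (blue) and the neighbours of Rnf31 (grey), with the 95% interval of the edgeR fit as a bar except for Rnf31. Rnf31 lies at 1.65, and the intervals of Rbck1, Sharpin, Otulin and Cyld include 0.

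The next list held ubiquitin itself and the enzymes that activate it and hand it to ligases. Of its 11 tested genes, Rps27a fell, 0 rose and 10 did not pass (median -0.23). Over all genes tested, 0.745% were lower and 3.33% higher. Rps27a encodes ubiquitin fused to a ribosomal protein and had 42.6 and 48.8 CPM with the KIF5C antibody, against 69.4 and 99.8 CPM with IgG. The log2 fold change was -0.89 (SE 0.23, adjusted p = 0.0407). Because ribosomal protein genes have near-identical processed pseudogenes, its count is uncertain. It missed the threshold without KIF5C replicate 1 (adjusted p = 0.362), KIF5C replicate 2 (0.120) or IgG replicate 2 (0.161), and with the correction for GC content and length (0.0749). Ube2l3, the gene of the conjugating enzyme that serves LUBAC and other ligases of its kind, had 42.9 and 41.6 CPM in the KIF5C libraries and 29.7 and 37.9 CPM in the IgG libraries (log2 fold change 0.33, SE 0.22, adjusted p = 0.407). Ube2k, another conjugating enzyme gene, was at -0.55 (SE 0.24, adjusted p = 0.191).

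In the TNF receptor complex and cell death list, 0 of 16 tested genes passed in edgeR and 0 in DESeq2 (median -0.16). Of all 14357 genes, 1784 were higher and 1301 lower at an unadjusted p under 0.05 in edgeR. In this list 1 was higher and 1 lower at that p. These were Ikbkb, an NF-kappaB pathway kinase gene, at 0.74 (SE 0.24, adjusted p = 0.0910), and Birc2, the ligase gene of cIAP1, at -0.47 (SE 0.21, adjusted p = 0.205). Ripk1, encoding the kinase that LUBAC modifies at the receptor, had 6.30 and 5.60 CPM in the KIF5C libraries and 5.89 and 7.38 CPM in the IgG libraries, and the groups overlapped.

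The list of NF-kappaB genes had 8 tested (median -0.09). Of these, 7 did not pass and 1 rose, against 3.33% higher over all genes tested. The 1 that rose was Rela, the gene of the RelA subunit of NF-kappaB. It had 12.4 and 15.2 CPM with the KIF5C antibody, against 6.78 and 6.23 CPM with IgG, with adjusted p = 0.0264 (log2 fold change 1.08, SE 0.25). It missed the threshold without KIF5C replicate 1 (adjusted p = 0.0703), KIF5C replicate 2 (0.161) or IgG replicate 2 (0.0782), and with the correction for GC content and length (0.0507). Nfkbib, an inhibitor gene, was at 0.37 (SE 0.27, adjusted p = 0.455).

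The enzyme families of the members were followed as well. HOIP and HOIL-1 are RBR ligases, named for their RING-between-RING domains. Of all 14357 genes, 1784 were higher and 1301 lower at an unadjusted p under 0.05 in edgeR. Among the 12 other RBR genes, 1 was higher and 1 lower at that p, and 0 passed in edgeR or DESeq2 (median 0.11). The smallest p-values were those of Rnf217 at -0.54 (SE 0.23, adjusted p = 0.185) and Cul9 at 0.55 (SE 0.26, adjusted p = 0.222). OTULIN is an OTU deubiquitinase. Of the 13 other OTU genes tested, Otud7a rose, 0 fell and 12 did not pass (median -0.09). Over all genes tested, 3.33% were higher and 0.745% lower. Otud7a had 40.9 and 40.3 CPM with the KIF5C antibody, against 20.5 and 25.7 CPM with IgG, with adjusted p = 0.0461 (log2 fold change 0.82, SE 0.22). It missed the threshold without KIF5C replicate 1 (adjusted p = 0.292), KIF5C replicate 2 (0.156) or IgG replicate 1 (0.0722), and its value was 0.46 (adjusted p = 0.242) with the correction for GC content and length. Yod1 was at -0.61 (SE 0.22, adjusted p = 0.118).

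Other cell types were followed by their markers, because LUBAC acts strongly in immune cells. The summed level of 10 microglial markers was 298 and 289 CPM in the KIF5C libraries and 349 and 278 CPM in the IgG libraries, with 0 called in edgeR and DESeq2 and 1 lower at an unadjusted p under 0.05 in edgeR. Of the 12 neuronal markers, 11 had a positive fold change, against 6836 of all 14357 genes tested. The neuronal markers summed to 5250 and 4781 CPM in the KIF5C libraries and 3953 and 4002 CPM in the IgG libraries. None of the 12 passed in edgeR, with 3 higher at an unadjusted p under 0.05, while DESeq2 called 2 higher. Over all genes, edgeR had 1784 of 14357 higher and 1301 lower at an unadjusted p under 0.05. DESeq2, run without the filter on low counts, called 650 of 22204 higher, whereas all 12 neuronal markers passed that filter. The 5 choroid plexus markers summed to 168 and 127 CPM in the KIF5C libraries and 433 and 234 CPM in the IgG libraries. Most of each sum was Ttr, the transthyretin gene, which was lower. It had 136 and 99.5 CPM in the KIF5C libraries and 400 and 213 CPM in the IgG libraries. The other 4 did not pass in edgeR, and 1 of the 5, Kl, had a positive log2 fold change (0.30). Of 7 oligodendrocyte markers 4 had a positive fold change (median 0.20) and the myelin gene Mog fell, with 2 higher and 1 lower at an unadjusted p under 0.05 in edgeR. Of the remaining types, 0 of 7 astrocyte and 0 of 6 endothelial markers passed in edgeR or DESeq2. In edgeR, 1 astrocyte marker was higher at an unadjusted p under 0.05. A positive fold change was found for 5 of the 7 astrocyte markers (median 0.17) and 4 of the 6 endothelial markers (median 0.115). Among the 10 microglial markers, 4 had a positive fold change (median -0.15). The part of these marker levels in the results above was not tested.

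The genes most like Rnf31 in their pattern over the 4 libraries were found by the Euclidean distance of centred log2 CPM among 9583 other genes whose mean log2 CPM was 3 or more. Predicted genes, clones, pseudogenes and rows without a usable name were then left out by the form of their names. The 9583 were counted before this step. Of the genes kept, the nearest was Rtn4rl2, a Nogo receptor family gene, at a distance of 0.12. It had 11.8 and 12.5 CPM in the KIF5C libraries and 4.42 and 2.67 CPM in the IgG libraries. Next came the Mediator subunit gene Med16 (distance 0.26), the clock repressor gene Nr1d1 (0.38), the zinc finger gene Wiz (0.42) and Ltbp4, which encodes a latent TGF-beta binding protein (0.44). Each had both KIF5C libraries above both IgG libraries and IgG library 1 above IgG library 2, as the choice by likeness requires.

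The value of Rnf31 lay between 1.35 and 2.19 over 13 alternatives. All of them reuse the libraries in which Rnf31 was picked for its rise, so its positive sign is no independent support. Its lowest value came without IgG replicate 2 and its highest without IgG replicate 1. Over the same alternatives Rbck1 ran from -0.56 to 0.13, Sharpin from -0.39 to 0.16, Otulin from -0.33 to 0.04 and Cyld from -0.18 to 0.22, and none of these 4 passed in any of the 13.

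**Figure D4:**
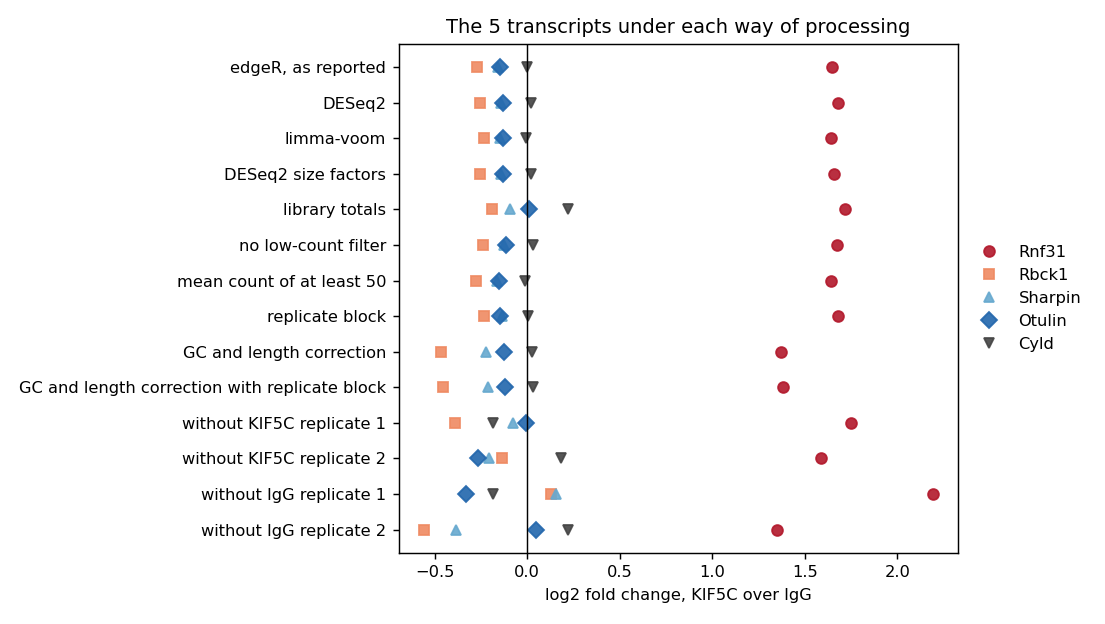
Log2 fold change of the KIF5C over the IgG precipitate (horizontal axis) for the 5 transcripts in the edgeR fit as reported (top row) and under 13 alternatives (rows below). Rnf31, which was picked for its rise in these libraries, lies between 1.35 and 2.19, and the other 4 lie between -0.56 and 0.22.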

How the data were processed

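Per gene and library, the deposited table gives a whole-number count that the authors did not normalize. Salmon, DESeq and GRCm38 are named in the submitters' processing notes, and the sources used here do not give versions, annotation or strandedness. Columns were matched to libraries through the sample descriptions. The authors' deposited comparison holds log2 fold changes with errors, p-values, a score (the test statistic), a linear fold ratio and a mean normalized signal per gene, per the file headers. Counts were tested with the quasi-likelihood test of edgeR 4.0.16 (R 4.3.3, TMM, minimum count 10, minimum total 15, group as the only term), with Benjamini-Hochberg adjustment over 14357 genes and a threshold of 0.05. The SE is the size of the log2 fold change divided by the square root of F. Alternatives were DESeq2 1.42.0, limma-voom (limma 3.58.1), other scalings and filters, a replicate block, offsets for GC content and length, and leaving out each library. Counts over lists under these were added after seeing the data. Lengths, GC content (97.1% of genes tested) and coordinates come from GENCODE M21. Otulinl was found under an older symbol, some genes of the lists are not reported here by name, and 27 rows named by a date are not named. The members and lists were chosen with earlier results of these data known. Named genes are the members, their neighbours and, in each list, the genes past the threshold. At most 5 were taken from a list, or the 2 with the smallest p where fewer pass. The 5 genes nearest to Rnf31 by pattern, predicted genes left out, are also named. Tnfaip3, Otulinl, Ikbkg, Optn, Ube2l3, Ripk1, Ttr, Kl and Mog were named after their values were seen, as were Tnf, Ripk3, Mlkl and Bcl3. Neighbours that were not tested or lie farther off are not described.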

Additional observations from a re-analysis of the deposited data

How the results depend on the processing

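The count of genes higher and lower in the KIF5C precipitate, 478 and 107, was 1 and 4 with library totals, where the median of all genes was 0.11 in place of -0.03, and 902 and 261 with no low-count filter. It ran from 116 to 978 higher and from 27 to 586 lower when 1 library was left out. The replicate number as a block gave 1162 and 517, and 767 and 408 with the correction for GC content and length as well. Same-numbered libraries deviated together weakly (correlation 0.14 over 14357 genes), nothing says that a number marks a shared origin, and there are only 2 pairs, so the block stays an alternative. It left Rnf31 at 1.68 and called none of Rbck1, Sharpin, Otulin and Cyld. Rnf31, at 1.65 with all libraries, was 2.19 without IgG replicate 1, and ran from 1.35 to 2.19 over the fits with 1 library left out. The signs of Rbck1, Sharpin, Otulin and Cyld, which were not called, changed among the alternatives. Of the 6 called list genes, 6 stayed past the threshold with DESeq2 and with limma-voom, 1 (Vcp) with the correction for GC content and length, and 0 with library totals. Leaving out 1 library kept 0 (KIF5C replicate 1), 1 (KIF5C replicate 2), 5 (IgG replicate 1) or 1 (IgG replicate 2). Where a library is left out, the lone library of its antibody is assumed to vary like the other group. The causes were not tested.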
